A study of Homo sapiens with 2 samples.

Results

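The genes described here move proteins and lipids between the endoplasmic reticulum (ER), the Golgi apparatus, endosomes and the cell surface. They were chosen by gene symbol, as RAB, SEC, ARF or VPS followed by a number, symbols that begin with YIPF, GOLGA or TMED, and the subunits of the COPI coat, with the SEC61, SEC62 and SEC63 genes of the ER translocon left out. The rule itself uses symbols and no measured value. It gave 132 of the 11963 genes with a named probe set, and each gene took the probe set with the highest mean signal intensity of both arrays. The cells were L-428, an established Hodgkin's lymphoma (HL) cell line. They had been transfected with pcDNA6.2-GW/EmGFP-miR-DUSP5, which expresses an artificial microRNA against DUSP5 together with a green fluorescent protein, or, as vector control, with pcDNA6.2-GW/EmGFP-miR-neg, and RNA of each was hybridised to 1 Affymetrix HG_133A microarray. DUSP5 is a nuclear phosphatase that inactivates the kinase ERK, and the comparison asks which transcripts differ once DUSP5 is reduced. The control is called empty in the methods, whereas its name denotes a vector with a negative control microRNA. Whether transfected cells were enriched is not given in the sources used here.

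With 1 array per condition there is no replicate and no test, and every value below describes these 2 arrays. Genes with a mean signal intensity of at least 200 over both arrays were treated as measured, which held for 96 of the 132 genes. The log2 ratio is that of the signal intensity after knock-down of DUSP5 over that in vector control. Its error, the standard deviation (SD), was taken over pairs of probe sets that share a gene and a band of mean signal, which was 0.41 at mean signals of 200 to 500, 0.36 up to 1000, 0.30 up to 3000 and 0.26 above. This SD does not cover the spread between cultures. DUSP5 itself had signals of 628 (control) and 368 (knock-down), a log2 ratio of -0.77 (SD 0.41). Of 8 genes that mark HL cells, 7 were measured and CCL22 was dim at 16.9 and 117, and the signals of all 8 summed to 45207 in control and 71815 after knock-down. None of 5 B cell markers on the array, 4 T cell or 3 myeloid markers reached a mean signal of 200. Of the fibroblast markers only COL1A1 (213 and 221) and of the epithelial markers only CDH1 (467 and 55.3) did. The part of such shifts in the trafficking genes was not tested. The arrays measured RNA of whole cultures, so that fewer cells with a transcript and less of it per cell cannot be told apart.

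Cargo leaves the ER in vesicles coated with COPII, whose inner layer is built from SEC23 and SEC24 and whose outer cage is built from SEC13 and SEC31. COPI, a coat recruited by ARF GTPases, returns proteins from the Golgi to the ER, and TMED proteins (the p24 family) span the membrane in both kinds of vesicle. RAB GTPases give each compartment its identity and recruit motors and tethers, golgins (GOLGA) hold vesicles at the Golgi, YIPF proteins are multi-span membrane proteins of the early secretory pathway, and VPS proteins form the complexes that sort cargo at endosomes and lysosomes. In secreting cells, transcription of this machinery is known to be raised by the stress pathways of the ER and the Golgi.

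Promoter sequences are shown for the coat and TMED genes because elements of these stress pathways are defined by short motifs. The windows are the 250 bases before the RefSeq gene start in GRCh38.p14, and 104 of the 132 genes had one. Both strands were searched for TGACGTGG (an XBP1 site), ACGTGGC (a Golgi stress element), CACGTG (an E-box) and the ER stress response element, which is CCAAT and CCACG with 9 bases between them. The first 3 motifs overlap in part, since each holds ACGTG. Sequences are printed 5′ to 3′ on the strand of the gene, with matches of either strand in capitals. The first 2 genes had the lowest ratio of their group, SEC24C had the highest COPII ratio, and SEC24A and COPB2 were added after the search because they held both the XBP1 site and the Golgi stress element.

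TMED10 (chr14:75176613-75176862, minus strand): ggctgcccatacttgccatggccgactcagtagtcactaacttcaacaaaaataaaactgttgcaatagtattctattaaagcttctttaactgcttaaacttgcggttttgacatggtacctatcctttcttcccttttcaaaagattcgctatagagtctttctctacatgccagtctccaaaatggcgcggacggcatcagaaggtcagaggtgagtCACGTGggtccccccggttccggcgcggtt
SEC23A (chr14:39103236-39103485, minus strand): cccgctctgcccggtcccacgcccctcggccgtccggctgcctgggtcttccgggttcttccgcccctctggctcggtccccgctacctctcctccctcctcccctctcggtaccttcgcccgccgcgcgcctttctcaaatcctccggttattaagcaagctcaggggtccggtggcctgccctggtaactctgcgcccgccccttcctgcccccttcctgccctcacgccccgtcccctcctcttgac
SEC24C (chr10:73744122-73744371, plus strand): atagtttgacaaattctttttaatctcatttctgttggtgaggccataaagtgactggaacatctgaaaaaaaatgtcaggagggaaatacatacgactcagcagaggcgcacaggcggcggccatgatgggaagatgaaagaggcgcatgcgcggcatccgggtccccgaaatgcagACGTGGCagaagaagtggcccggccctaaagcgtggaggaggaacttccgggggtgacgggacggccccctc
SEC24A (chr5:134648535-134648784, plus strand): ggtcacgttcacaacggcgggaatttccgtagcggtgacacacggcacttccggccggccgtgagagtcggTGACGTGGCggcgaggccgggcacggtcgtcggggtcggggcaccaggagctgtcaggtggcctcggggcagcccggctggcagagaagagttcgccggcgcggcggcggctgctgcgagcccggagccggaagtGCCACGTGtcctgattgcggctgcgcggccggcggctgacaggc
COPB2 (chr3:139389681-139389930, minus strand): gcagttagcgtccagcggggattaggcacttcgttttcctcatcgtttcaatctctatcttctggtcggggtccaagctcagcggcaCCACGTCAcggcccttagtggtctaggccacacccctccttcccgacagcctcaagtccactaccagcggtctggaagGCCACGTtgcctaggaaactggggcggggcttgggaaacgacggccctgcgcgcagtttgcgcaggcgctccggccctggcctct

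The SEC23A window held none of the 4 motifs, nor did those of COPZ1 and COPE, the lowest and highest COPI genes. The Golgi stress element was found in 11 of the 104 windows (10.6%), against 2.85% of 27305 RefSeq promoters and 3.97% of the 5334 promoters of measured genes. The XBP1 site was found in 5 (4.81%), against 0.667% and 0.862%. The E-box was in 12 (11.5%), against 6.49% and 9.43%, and the ER stress response element in none, against 0.0806% of all promoters. Among the 80 measured genes with a window, the 9 with a Golgi stress element and the 5 with an XBP1 site all lay between the 1.5-fold limits, where 67.5% of these 80 genes lay. With 4 genes in both sets, these are not separate counts. They were COPB2, COPG1, GOLGA1, GOLGA5, SEC24A, SEC24C, SEC31A, TMED2 and VPS16 for the first and COPB1, COPB2, GOLGA1, GOLGA5 and SEC24A for the second. None of the 20 windows of lower genes and none of the 6 of higher genes held either motif. A match is a string of letters and not a shown binding site. GC content was alike, with a median of 64.8% in the windows of lower genes and 65.8% in those of higher genes.

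More of the trafficking genes were lower than higher after knock-down of DUSP5. Of the 96 measured genes, 26 (27.1%) were at least 1.5-fold lower, where 19.0% of all 6301 measured genes were, and 8 (8.33%) were at least 1.5-fold higher, where 15.6% of all genes were. The remaining 62 lay between. Of the 96, 6 had 1 array under 200: RAB11B, RAB11FIP5, RAB20 and SEC14L5 reached the limit through the knock-down array and YIPF1 and YIPF4 through the control array, where each was higher. The median log2 ratio was -0.23 (error 0.045, from the SD between probe sets) against 0.01 for all measured genes, and 58 of 96 ratios were below 0. The error leaves out the spread between genes, whose quartiles were -0.61 and 0.28. At least 2-fold lower were 8 genes (8.33%), against a background of 7.30%, and no trafficking gene was at least 2-fold higher, where 4.38% of all genes were. The 2-fold lower genes were YIPF1, TMED10, VPS13B, RAB9A, YIPF4, TMED5, GOLGA7 and SEC22B. With the ratios centred on the median of all probe sets, which was 0.12, the counts became 33 lower and 5 higher, while the shares of all genes became 24.1% lower and 11.0% higher. Of the 34 genes past 1.5-fold, 25 remained so under each of 4 other scalings.

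**Figure D1:**
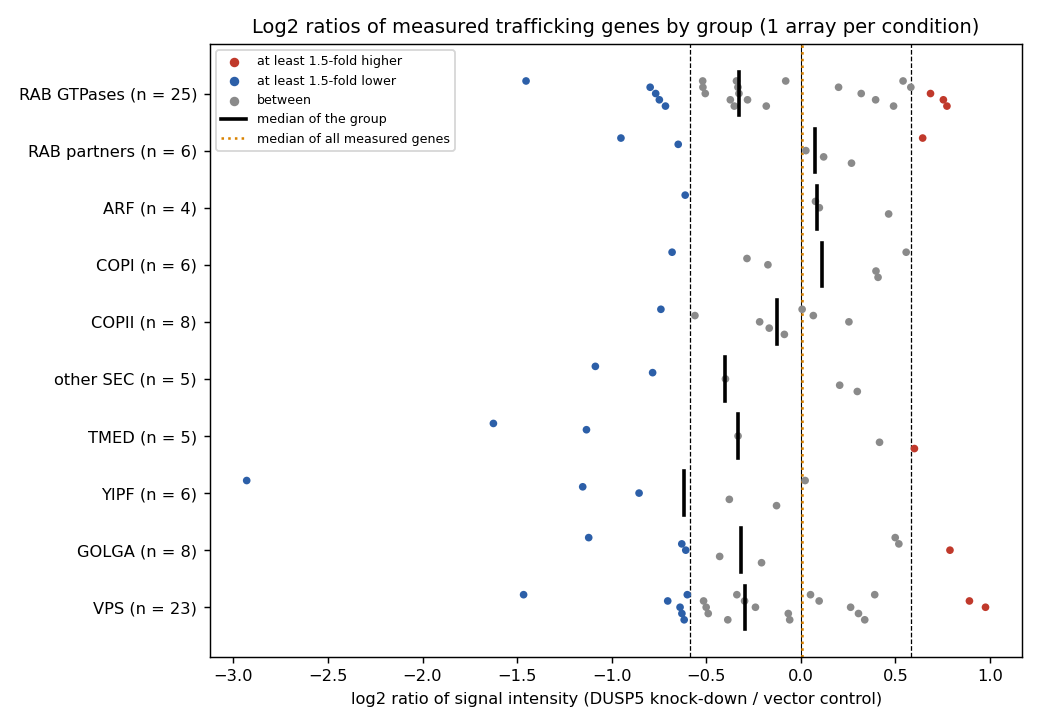
Log2 ratio of signal intensity (DUSP5 knock-down over vector control, horizontal axis) of the 96 measured trafficking genes in 10 groups. Each point is a gene, coloured by the 1.5-fold rule (dashed lines), black bars are group medians, the dotted line is the median of all measured genes at 0.01, and the vertical offset of points has no meaning. YIPF1 lies farthest to the left at -2.93, and no point lies beyond 1.0 on the right.

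The groups differed in their medians. YIPF genes had the lowest, -0.62 (error 0.20, 6 genes), followed by the SEC genes outside COPII at -0.40 (0.19, 5 genes). The YIPF median includes YIPF1 and YIPF4, which reached the limit on mean signal only through the control array. Without these genes the YIPF median would not be the lowest. TMED (-0.33, error 0.16, 5 genes), RAB GTPases (-0.33, error 0.086, 25 genes), GOLGA (-0.32, error 0.17, 8 genes) and VPS (-0.30, error 0.097, 23 genes) lay close together. COPII was at -0.13 (0.16, 8 genes). The remaining groups lay on the other side of 0, with RAB partners at 0.07 (0.19, 6 genes), ARF at 0.09 (0.18, 4 genes) and COPI at 0.11 (0.15, 6 genes), and these 3 turned negative when ratios were centred on the median. With all probe sets averaged the other SEC genes turned to 0.10 and COPI to -0.47, and with _s_at and _x_at probe sets left out the other SEC genes were at 0.30, GOLGA at 0.22 and ARF at -0.62, so that the order depends on the probe sets used. Most steps in this order were smaller than the errors. The errors come from the SD between probe sets and leave out the spread between genes, which was wide. For RAB GTPases the quartiles were -0.52 and 0.40. No difference between groups was tested.

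**Figure D2:**
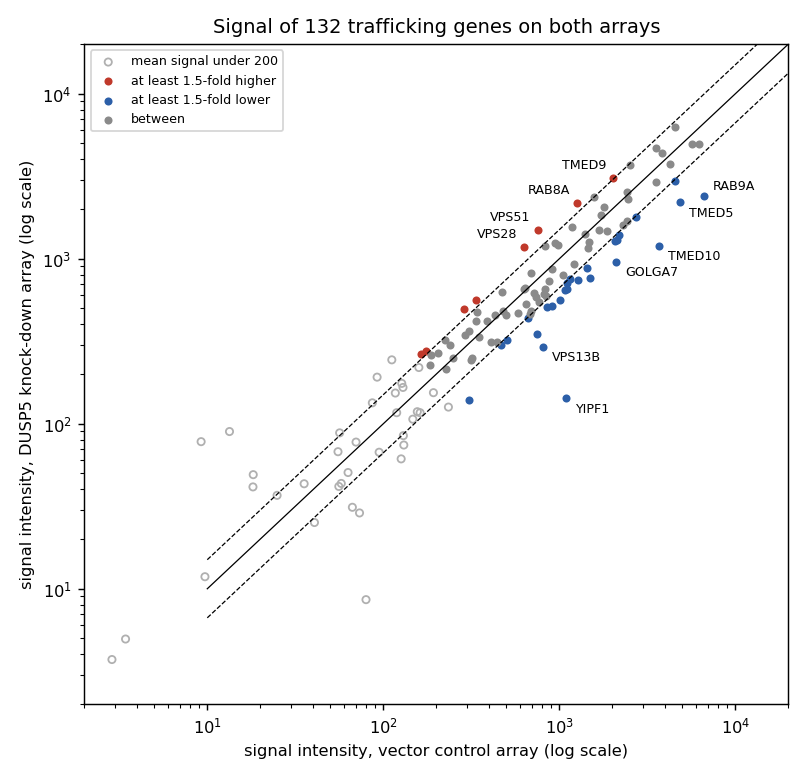
Signal intensity of the 132 trafficking genes on the vector control array (horizontal) and on the DUSP5 knock-down array (vertical), both on log scales. The solid line marks equal signal and the dashed lines a 1.5-fold difference. YIPF1 (1086 and 142) has the lowest ratio and VPS51 (755 and 1485) the highest among measured genes, and grey circles are genes with a mean signal under 200.

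YIPF genes had the lowest group median, and 5 of the 6 genes had ratios below 0, where 49.6% of all measured genes were. Among these 5, YIPF1 and YIPF4 were under 200 after knock-down and counted as measured only through the control array. For a gene that passes in this way, a ratio below 0 is fixed by the limit. The lowest place of the group rests on them, as the remaining genes gave -0.86, -0.38, -0.13 and 0.02. YIPF1, a membrane protein of the Golgi, gave 1086 with control vector and 142 with knock-down. Its signal was thus 13.1% of the control value (log2 ratio -2.93, SD 0.36). This was the largest difference of all 96 genes. It rests on a single probe set, and the signal after knock-down lay in a range where probe sets vary more (SD 0.73 from 100 to 200). YIPF4 gave 308 and 139, a ratio of -1.15 (SD 0.41), and its second probe set, with a mean signal of 154, gave -0.36. YIPF6 gave 1012 and 559, a ratio of -0.86 (SD 0.36), with -0.50 and -0.08 at its other measured probe sets and -1.97 at a dim one. All 3 were lower at the probe sets named, but by unequal amounts. YIPF3, which acts with YIPF4 in the Golgi, gave 315 and 242 (-0.38), and YIPF5, which cycles between the ER and the Golgi, gave 495 and 453 (-0.13), both within the SD of 0.41. YIPF2 gave 247 and 251 (0.02) at its brightest probe set, whereas its dimmer ones, with mean signals of 144 and 116, gave -3.09 and -0.61.

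TMED genes went both ways. TMED10, a p24 protein that returns with COPI vesicles, had signals of 3690 and 1196, a ratio of -1.63 (SD 0.30), and its second probe set gave -1.23. TMED5 gave 4812 and 2194 (-1.13, SD 0.26), with -0.78 at its other probe set. Both were lower at every measured probe set. TMED2, which forms complexes with TMED10, gave 6216 and 4939 (-0.33), with -0.82 and -0.21 at its other probe sets. TMED9 gave 2028 and 3075, a ratio of 0.60 (SD 0.30), and its other probe set gave 0.89. TMED3 gave 938 and 1252 (0.42, SD 0.30). The difference between the lowest and the highest p24 gene was thus several times the SD. TMED9 fell short of 1.5-fold, at 0.48 and 0.56, when ratios were centred or a trend on signal was subtracted. TMED1 was not measured, and TMED4 and TMED7 had no probe set with a single symbol.

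In the COPI coat ratios lay on both sides of 0. COPZ1, the zeta subunit, gave 2064 and 1288, a ratio of -0.68 (SD 0.30), and was the only COPI gene past 1.5-fold. The alpha subunit COPA gave 3538 and 2904 (-0.28, SD 0.26), with -0.46 at its other measured probe set. The beta subunit COPB1 gave 4250 and 3768 (-0.17), with -0.35 at its other. Of these 3 subunits COPZ1 alone was off by more than 2 SD. COPB1 lay within its SD at its brightest probe set but not at its other (SD 0.30). COPE, the epsilon subunit, gave 2522 and 3711 (0.56, SD 0.26). It too was off by more than 2 SD, and it lay just under the limit at 1.47-fold higher. The beta prime subunit COPB2 gave 1173 and 1556 (0.41, SD 0.30), and the gamma subunit COPG1 gave 474 and 625 (0.40, SD 0.36). The remaining coat subunit, ARCN1, which the symbol rule does not reach, gave 1792 and 1119, a ratio of -0.68. Counted with the coat, it brings the COPI median from 0.11 to -0.17. COPZ2 was dim at 24.9 and 36.8. COPG2 had no probe set of its own.

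Most COPII genes lay close to control at their brightest probe sets, but not at every probe set. With all probe sets averaged the COPII median was -0.29. Of 8 measured genes only SEC23A, the GTPase-activating protein of SAR1, was past 1.5-fold, with 1075 and 644 (-0.74, SD 0.36) and -0.26 at its other probe set. SEC23B gave 1686 and 1502 (-0.17, SD 0.30) at the brightest probe set, but -1.09 and -0.93 at the others. The cargo-binding subunits differed, with SEC24B at 682 and 462 (-0.56, SD 0.36), SEC24C at 686 and 818 (0.25, SD 0.36) and SEC24A at 625 and 655 (0.07). The second probe set of SEC24A gave -1.15. The cage subunits SEC13 (2451 and 2307, -0.09) and SEC31A (1469 and 1263, -0.22, with 0.16 at its other probe set) lay within the SD of 0.30. The scaffold of ER exit sites SEC16A gave 481 and 484 (0.01). SEC24D (119 and 117) and SEC31B (126 and 61.2) were not measured.

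**Figure D3:**
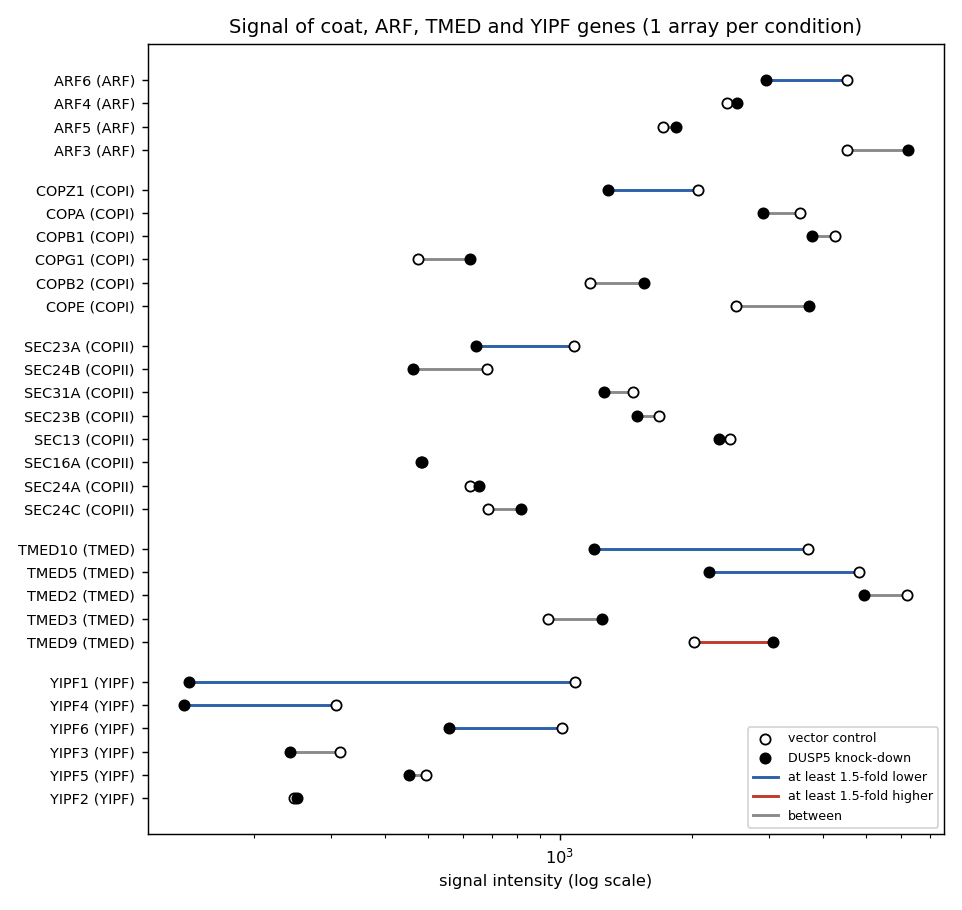
Signal intensity (log scale) of the measured ARF, COPI, COPII, TMED and YIPF genes in vector control (open circles) and after DUSP5 knock-down (filled circles), 1 array each. Blue and red lines mark genes at least 1.5-fold lower and higher. The longest line is that of YIPF1, from 1086 to 142, and in the TMED group TMED10 and TMED9 run in opposite directions.

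Among ARF GTPases, ARF6 stood apart. It acts at the plasma membrane and in endosomal recycling, and gave 4516 and 2956, a ratio of -0.61 (SD 0.26), with -0.94 and -1.34 at its other probe sets. The Golgi and ER-Golgi members ARF4 (2410 and 2543, 0.08, with 0.33 at its other probe set) and ARF5 (1720 and 1841, 0.10) lay within the SD of 0.30 at their brightest probe sets. ARF3 gave 4527 and 6247 (0.46, SD 0.26), but its other probe sets gave -0.30 and 0.13. Only ARF6 was past the SD at all of its probe sets. ARF1 had no probe set with a single symbol.

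Of 25 measured RAB GTPases, 5 (20%) were at least 1.5-fold lower and 3 (12%) higher, close to the 19.0% and 15.6% of all measured genes. Those of late endosomes and lysosome-related organelles are described first, as a set put together with its values known. RAB9A, which carries receptors from late endosomes back to the Golgi, had signals of 6602 and 2412, the latter 36.5% of the former, a ratio of -1.45 (SD 0.26) from its single probe set. RAB29, which acts at the Golgi and lysosomes, gave 1109 and 652 (-0.77, SD 0.36), with -0.42 at its other probe set. RAB7A, the main RAB of late endosomes, gave 1208 and 933 (-0.37, SD 0.30) with -0.08 at its other measured probe set, and RAB27A, which docks secretory lysosomes and exosomes, gave 1457 and 1157 (-0.33, SD 0.30) with -0.36, -1.23 and -0.87 at its other probe sets. Of these 4 genes RAB9A and RAB29 passed 1.5-fold. RAB32 and RAB38 of the same organelles were not measured.

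RAB genes of early endosomes and of the ER and Golgi went both ways. RAB5A, RAB5B and RAB5C drive fusion of early endosomes. RAB5B gave 903 and 520 (-0.80, SD 0.36), RAB5C gave 826 and 1201 (0.54, SD 0.30, and -0.10 at its other probe set) and RAB5A gave 1785 and 2050 (0.20, SD 0.30). RAB21 (2428 and 1695, -0.52) and RAB22A (690 and 482, -0.52) were lower by more than the SD, although RAB22A gave 0.21 at another probe set. In the early secretory pathway, RAB1B was lower (853 and 508, -0.75, SD 0.36), while RAB1A gave 5640 and 4970 (-0.18) with 0.78 and -0.34 at its other measured probe sets. RAB2A shows how far probe sets can differ, with 0.58 at the brightest (1570 and 2350, x_at type) and -0.21, -0.68 and -1.24 at the other measured ones. RAB6B gave 645 and 531 (-0.28) and RAB30 gave 335 and 418 (0.32).

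RAB genes of recycling and exocytosis went both ways. RAB8A, which directs vesicles to the plasma membrane, gave 1266 and 2164, a ratio of 0.77 (SD 0.30), and its close relative RAB8B gave 2284 and 1609 (-0.51, SD 0.30). RAB11B gave 164 and 264 (0.69, SD 0.41, with 0.12 at its other probe set). It reached the limit on mean signal only through the knock-down array and fell to 0.56 with centred ratios. RAB11A of recycling endosomes gave 3547 and 4666 (0.40, SD 0.26). RAB14 was lower, with 2134 and 1300 (-0.72, SD 0.30) and -0.56 at its other measured probe set. RAB23, known for its part in Hedgehog signalling, was the third higher gene (334 and 563, 0.75, SD 0.41). RAB20 of phagosomes gave 187 and 263 (0.49). Partners of RAB11 also went both ways, with RAB11FIP1 at 1483 and 767 (-0.95, SD 0.30), RAB11FIP2 at 503 and 321 (-0.65, SD 0.41) and RAB11FIP5 at 175 and 274 (0.64, SD 0.41). RAB3IL1, an exchange factor, gave 305 and 367 (0.27), and RAB3GAP1 gave 1390 and 1416 (0.03). Of 43 RAB GTPases 18 were under a mean signal of 200, so their ratios were not read.

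VPS genes are described by complex, a division made with their values known. Of 23 measured, 6 (26.1%) were at least 1.5-fold lower and 2 (8.70%) higher, next to 19.0% and 15.6% of all measured genes. The retromer, which retrieves receptors from endosomes, was lower at both subunits measured, VPS35 (2732 and 1782, -0.62, SD 0.30) and VPS26A (2168 and 1393, -0.64, SD 0.30), the latter falling just short of 1.5-fold (-0.58) with quantile normalization. The retriever subunits VPS26C (-0.50) and VPS35L (-0.30) were below 0 but not past 1.5-fold, and VPS26C gave 0.17 at its other probe set. The lipid transfer proteins of the VPS13 family spread most. VPS13B, which acts at the Golgi, gave 808 and 292 (-1.47, SD 0.36) and VPS13C, which acts at late endosomes and lysosomes, gave 1430 and 878 (-0.70, SD 0.30). VPS13D gave 411 and 314 (-0.39, with -0.58 at its other measured probe set) and VPS13A 204 and 268 (0.39, with -0.41 at its other measured probe set), both within the SD of 0.41.

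The tethering and ESCRT subunits among the VPS genes contained both higher ones. VPS51 of the GARP tether gave 755 and 1485, a ratio of 0.98 (SD 0.30) and the highest of all measured trafficking genes. Of the other GARP subunits, VPS52 gave 977 and 1206 (0.30, SD 0.30) and VPS54 gave 762 and 543 (-0.49, SD 0.36). VPS53 was under the limit on mean signal, with 92.2 and 192 at its brighter probe set. VPS28 of ESCRT-I gave 632 and 1172 (0.89, SD 0.36), while VPS37C of the same complex gave 289 and 347 (0.26, SD 0.41). The ESCRT ATPases VPS4A (907 and 871, -0.06) and VPS4B (869 and 736, -0.24) lay within the SD of 0.36. Of 5 measured subunits of the HOPS and CORVET tethers none was past 1.5-fold, with ratios from -0.51 (VPS41) to 0.34 (VPS39). VPS33B (465 and 301, -0.63) and VPS45 (663 and 437, -0.60), which help SNAREs to assemble, were lower by little more than the limit and fell under it with at least 1 other scaling. VPS72 (831 and 658, -0.34) is a chromatin protein that carries the VPS name.

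Golgins and the remaining SEC genes were mixed as well. GOLGA7, a partner of the enzyme that palmitoylates RAS, gave 2091 and 961 (-1.12, SD 0.30). GOLGA3 gave 287 and 496 (0.79, SD 0.41), and the cis-Golgi tether GOLGA2 gave 225 and 323 (0.52) with 0.65 at its other measured probe set. GOLGA4 of the trans-Golgi gave 339 and 478 (0.50, SD 0.41), while GOLGA1 gave 818 and 608 (-0.43) with -1.11 at its other measured probe set. GOLGA8A (1105 and 714, -0.63, with 0.02 at its other) and GOLGA8N (1151 and 755, -0.61) belong to a family of near-identical copies, so that their x_at probe sets may share transcripts. SEC22B, a SNARE between ER and Golgi, gave 747 and 352 (-1.09, SD 0.36). SEC14L1, a lipid-binding protein, gave 1271 and 738 (-0.78, SD 0.30) but 0.22 at its other measured probe set. SEC11A, a signal peptidase subunit, gave 3805 and 4388 (0.21) and SEC14L5 184 and 227 (0.30).

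Close relatives were also set side by side. In 11 families with at least 2 measured genes, 25 pairs were compared, without a test. The difference in log2 ratio was larger than its SD, taken from both probe sets, in 16 pairs and larger than 2 such SD in 6. Ratios of opposite sign were found in 12 pairs (48.0%). Of all measured genes 49.6% were below 0, but this is a share of single genes. Neither the share of opposite signs nor the shares past these SD limits were computed for pairs of unrelated genes. The counts of pairs thus have no background beside them. Pairs within the VPS13 and ARF families made up 12 of the 25. The widest were VPS13A over VPS13B (1.86, SD 0.55), RAB5C over RAB5B (1.34, SD 0.47) and RAB8A over RAB8B (1.28, SD 0.43). Outside these families the widest was ARF3 over ARF6 at 1.08 (SD 0.37). In the first, second and last of these, the gene with the higher ratio had a measured probe set below 0.

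Probe sets of the same gene put a limit on these values. Of the 96 measured genes 39 had several measured probe sets, of which 27 had all ratios on 1 side of 0 and 12 did not. Among genes at least 1.5-fold lower, 11 had several, and in 9 they were all below 0, the exceptions being SEC14L1 and GOLGA8A. Both higher genes with several, TMED9 and RAB11B, had all of them above 0. Each RAB11B probe set reached the limit on mean signal only through the knock-down array (164 and 264, 195 and 212). For RAB11B, ratios above 0 were thus fixed by the limit, and its second, 0.12, lay within the SD of 0.41. Among higher genes, agreement between probe sets therefore rests on TMED9 alone. The other 15 lower and 6 higher genes rest on 1 measured probe set, among them YIPF1, RAB9A, VPS13B, GOLGA7, VPS51 and VPS28. The median range within a gene was 0.38. Ratios larger than 2 SD were found in 21 genes below 0 and in 4 above. The share of all measured genes past 2 SD was not computed, so these counts have no background beside them.

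**Figure D4:**
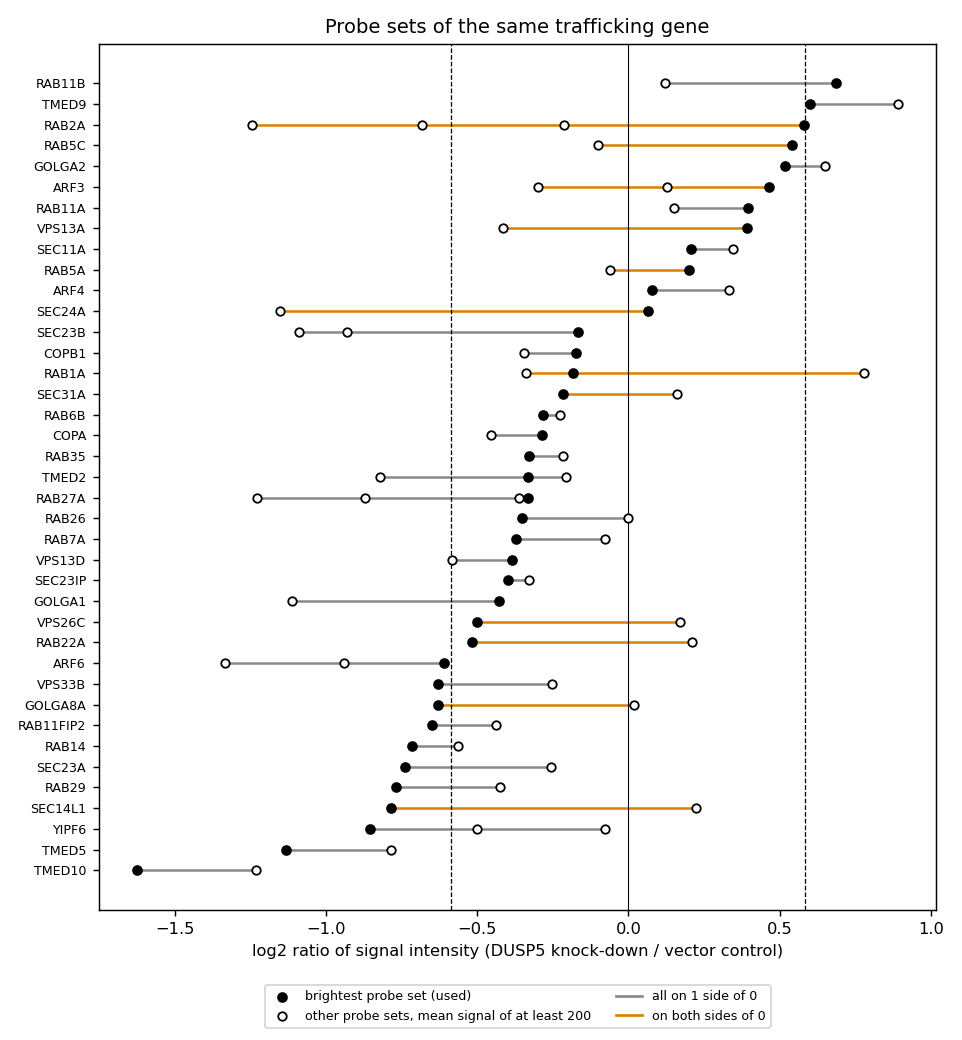
Log2 ratios (DUSP5 knock-down over vector control, horizontal axis) of every probe set that reached a mean signal of 200, for the 39 trafficking genes with several. Filled circles are the brightest probe sets, open circles the others, orange lines mark genes with probe sets on both sides of 0, and dashed lines mark 1.5-fold. TMED10 and TMED5 lie wholly to the left, and RAB2A, SEC24A and RAB1A span the widest ranges across 0.

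Machinery that works with these genes but has other symbols was described with 8 lists of 209 genes on the array, of which 175 were measured. In these, 30 (17.1%) were at least 1.5-fold lower and 18 (10.3%) higher, next to 19.0% and 15.6% of all measured genes, and the median was -0.07. Partners of COPI had the lowest median, -0.68 (error 0.15), with 5 of 9 lower, none higher and 4 above 0. This median is the value of ARCN1, and without that gene it was -0.31. GOLPH3 (3790 and 1786, -1.09, SD 0.30) and GOLPH3L (542 and 253, -1.10, SD 0.41), which bind Golgi lipid and retain enzymes with COPI, were lowest, and the ARF exchange factor GBF1 (816 and 489, -0.74), ARFGAP3 (888 and 554, -0.68) and ARCN1 completed the 5. At the upper end were RER1 (2703 and 3753, 0.47, with -0.44 as the lowest of its 3 probe sets) and ARFGAP1 (410 and 523, 0.35). Of 17 ARF regulators 5 were lower. These included the exchange factors ARFGEF2 (-0.88, with -0.03 at its other measured probe set) and ARFGEF1 (-0.67) and, second lowest, ASAP1 (-0.77). GIT1 (0.71) was higher, followed by CYTH4 (0.49).

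Genes that start COPII vesicles or carry their cargo had 2 lower and 2 higher of 14 (14.3% each), next to 19.0% and 15.6% of all measured genes. SAR1B, the GTPase that begins the coat, gave 1238 and 2187 (0.82, SD 0.30), whereas SAR1A gave 2698 and 2194 (-0.30). ERGIC2 (0.64) was also higher, and BCAP29 (350 and 179, -0.97, with the knock-down signal under 200) and LMAN2L (-0.73) were lower. Of 35 SNAREs and fusion factors 7 were lower and 1 higher. Lowest were SNAP23 (2795 and 1421, -0.98, and -1.06 to -0.85 over 3 probe sets) and the Golgi SNARE GOSR1 (-0.91, with -0.25 as the highest of its 3 measured probe sets). At the other end were BET1L (147 and 271, 0.89, with the control signal under 200) and BNIP1 (0.57, with 0.21 at its other measured probe set). Tethering complexes had 2 lower and 2 higher of 22 (9.09% each), TRAPPC2 (1475 and 558, -1.40, SD 0.30) and the exocyst subunit EXOC1 (-0.74) against EXOC2 (0.63) and GORASP1 (0.61).

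Clathrin and its adaptors had the highest median of the 8 lists, 0.29 (error 0.090). Of 22 genes 5 (22.7%) were higher and 3 (13.6%) lower, next to 15.6% and 19.0% of all measured genes. AP1B1 (464 and 902, 0.96, SD 0.36) and clathrin light chain CLTA (3628 and 6715, 0.89, SD 0.26, with 0.28 as the lowest of its 3 measured probe sets) were highest. PICALM (1738 and 951, -0.87, with 0.22 as the highest of its 5 probe sets) and AP1G2 (-0.71) were lowest. RAB regulators had a median of 0.03, with 3 of 31 higher and 3 lower (9.68% each). RIN1 (171 and 352, 1.04, with the control signal under 200) and the RAB recycling factor GDI2 (4602 and 7712, 0.74, SD 0.26) were highest, and OPTN (-0.68) and DENND4A (-0.67) lowest. Sorting nexins and ESCRT genes had 4 of 25 higher, led by STAM2 (1.03, with 0.40 at its other measured probe set) and CHMP2A (0.91), and 3 lower, led by SNX6 (-0.98) and TSG101 (-0.65).

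**Figure D5:**
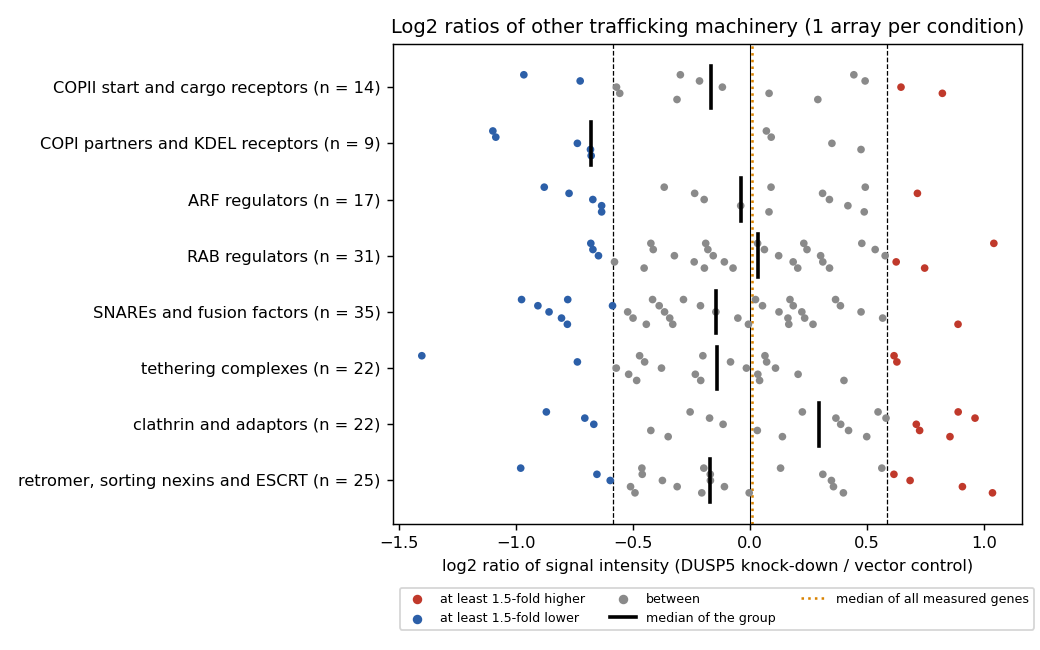
Log2 ratio of signal intensity (DUSP5 knock-down over vector control, horizontal axis) of measured genes in 8 lists of other trafficking machinery. Points, colours and dashed lines are as for the trafficking groups, and black bars are list medians. COPI partners have the lowest median at -0.68 and clathrin and adaptors the highest at 0.29.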

How the data were processed

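RNA of L-428 cells was hybridised to 2 Affymetrix arrays, 1 per condition. The deposited signal intensities are linear values that the authors obtained with MAS5 in Expression Console, with every array scaled to a target intensity of 500. Genes were named from the platform annotation of 2016, and all 132 members were found in the RefSeq table of GRCh38.p14 with an unchanged symbol. Another 22 probe sets with a member among several symbols were left out. A gene took its brightest probe set, and a mean signal of at least 200 counted as measured. Group medians carry an error of the root mean square SD between probe sets, divided by the root of the number of genes and scaled for a median. It leaves out the spread between genes and between cultures. Members, groups and lists were chosen with earlier results of these data known. Genes were named by rule: among genes whose measured probe sets all went the same way (84), the 12 highest and 12 lowest, every measured COPI, COPII, ARF, TMED and YIPF gene, the 2 highest and 2 lowest of each other group and list, and the 3 widest pairs of relatives. Of the 84 genes, 57 had 1 measured probe set and so went the same way by definition. Other genes, the subdivision of RAB and VPS genes, and the 2 added promoters were chosen after their values were seen. Alternatives were quantile normalization, median centring, subtraction of a lowess trend (span 0.3), 32 added to each signal, other limits on signal (none, or 500) and fold (2), averaged probe sets, and _s_at and _x_at types left out. The number of arrays limits the precision. Steps were tested on simulated data. Python 3.11.15, numpy 2.4.6, pandas 2.3.3, statsmodels 0.14.6 and matplotlib 3.10.9 were used.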

Additional observations from a re-analysis of the deposited data

How the results depend on the processing

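No paired analysis was possible because a single array was hybridised for either group. The excess of lower over higher trafficking genes was found under every alternative run, with 18 to 34 lower and 4 to 16 higher at 1.5-fold. All measured genes leaned lower too in most of these, by 24.1% to 11.0% with median centring and 21.3% to 14.5% with _s_at and _x_at left out, but higher with no limit on signal (18.7% to 24.6%). The count of higher genes was 5 of 96 with median centring, 4 of 69 with signals of 500 or more and 16 of 132 with no limit on signal. At 2-fold, 8 were lower and 0 higher, next to 7.30% and 4.38% of all measured genes. Group medians moved by more than their error as follows, and the cause was not tested beyond the smaller number of genes where that is given. With median centring, which subtracts 0.12, RAB GTPases were at -0.45, VPS at -0.42 and all 96 genes at -0.35. TMED was at -0.54 with quantile normalization and -0.54 with the lowess trend subtracted. With ARCN1 counted as a coat subunit, a choice made after seeing the data, COPI was at -0.17. With no limit on signal RAB GTPases were at -0.18 and COPI at 0.40. With signals of 500 or more, YIPF was at -1.89 (2 genes), RAB partners at -0.46 (2 genes), GOLGA at -0.61 (5 genes) and all at -0.33. With the mean of all probe sets, RAB partners were at -0.18, COPI at -0.47, COPII at -0.29 and the other SEC genes at 0.10. Dim probe sets under a signal of 200 enter these means. With the types _s_at and _x_at left out, ARF was at -0.62 (2 genes), COPII at -0.56 (5 genes), the other SEC genes at 0.30 (3 genes), YIPF at -0.86 (3 genes), GOLGA at 0.22 (4 genes) and all at -0.28. Of 56 named genes, 10 moved by more than the SD between probe sets in 12 of 410 values, and SEC14L1 (0.10), COPE (-0.67) and SEC24A (-0.54) changed sign when probe sets were averaged. Low signal over background limits the 36 genes under 200.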
